A study of Mus musculus with 32 samples.

Results

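T cell RNA differed widely among 32 primary mouse melanomas, and the 10 tumours with the most of it were compared with the 10 that had the least. The tumours were ordered by a T cell score, the mean of log2(TPM + 1) over Cd3e, Cd3d, Cd3g and Cd2, where TPM is transcript abundance scaled for gene length and library size. The members were thus chosen by their own levels of these 4 messages. The 10 highest are called T cell-rich, the 10 lowest T cell-poor, and the other 12 lie between, so that 20 of 32 tumours entered the comparison. All mice carried an oncogenic NRAS (Tyr::NrasQ61K), driven by the tyrosinase promoter in melanocytes, and only 1 working copy of Cdkn2a, a tumour suppressor, on a C57BL/6J background. Tumours named Ecad (labelled Tyr::NrasQ61K;Cdkn2a-/+;°/°;Cdh1F/F) kept the floxed Cdh1 gene of E-cadherin intact. Tumours named ΔEcad are labelled Tyr::NrasQ61K;Cdkn2a-/+;Tyr::NRAS/°;Cdh1F/F, where the methods of the study give a Cre recombinase under the tyrosinase promoter, which deletes Cdh1 in melanocytes alone. Each genotype was represented by 8 tumours labelled male and 8 labelled female, and ages were not given in the sources used here. Each sample is a piece of whole tumour, so melanoma cells, immune cells, vessels and any attached skin share 1 RNA pool.

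The CD3 chains carry the signal of the T cell receptor into the cell, and CD2 is an adhesion receptor of T and natural killer (NK) cells. T cells read peptides held by MHC class I on nearly every cell and by MHC class II on antigen-presenting cells. Activated T and NK cells release interferon gamma, which raises the MHC genes and a set of guanylate-binding proteins and chemokines in the cells around them, and skin has resident T cells of its own.

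Total counts per tumour ran from 24036333 to 63923086. In 3 of the 20 tumours compared the RNA stood apart. ΔEcad male 7, T cell-rich, had a mean log2 CPM (counts scaled to library size) of -0.86 over 13 melanocytic genes, against 7.71 to 10.1 in the T cell-poor tumours. Ecad female 3, T cell-poor, held salivary gland RNA, with 18442 TPM summed over 8 salivary genes. ΔEcad female 3, T cell-poor, had 0 TPM over 5 red blood cell genes and 16.2 TPM over 12 macrophage genes. Counts without these 3 tumours are given beside the main ones.

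The T cell score ran from 1.94 to 3.50 in the T cell-rich tumours and from 0 to 0.73 in the T cell-poor tumours. In descending order the T cell-rich tumours were ΔEcad male 4 at 3.50, Ecad male 6 at 2.85, Ecad male 4 at 2.83, Ecad female 7 at 2.76, ΔEcad male 8 at 2.49, ΔEcad female 2 at 2.38, Ecad male 5 at 2.22, ΔEcad female 1 at 2.02, ΔEcad male 7 at 1.96 and ΔEcad male 3 at 1.94. The T cell-poor tumours were Ecad male 3 at 0.73, Ecad male 8 at 0.65, Ecad female 5 at 0.52, Ecad female 4 at 0.32, Ecad female 1 at 0.30, ΔEcad male 6 at 0.17, Ecad female 8 at 0.10, Ecad female 3 at 0.06, ΔEcad female 4 at 0.05 and ΔEcad female 3 at 0. The nearest tumours outside the sides were Ecad female 2 at 1.76 and Ecad male 7 at 0.83, so neither border falls in a wide gap. The score genes are few counts deep. Over all 4 genes the T cell-rich tumours held 379 to 1101 counts, the tumours between 92 to 300 and the T cell-poor tumours 0 to 98.

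The 3 CD3 genes lie side by side on chromosome 9 (GRCm38), in the order Cd3g (44969572 to 44980431), Cd3d (44981786 to 44987339) and Cd3e (44998740 to 45009627). Cd3e was at 0.89 to 7.98 TPM (median 2.7) against 0 to 0.37 TPM (median 0.095) in T cell-rich against T cell-poor tumours, Cd3d at 2.19 to 12.7 TPM (median 4.84) against 0 to 0.54 TPM (median 0.135) and Cd3g at 2.92 to 15.9 TPM (median 5.45) against 0 to 0.42 TPM (median 0.135). Cd2 (chromosome 3, 101275899 to 101287939) was at 2.78 to 10.8 TPM (median 6.05) against 0 to 1.77 TPM (median 0.31). These values chose the tumours and are a description. Both sides held the same 10 tumours when the score was taken from log2 CPM or from genes scaled to equal variance, and shared 9 or 10 of 10 when any 1 gene was left out.

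**Figure D1:**
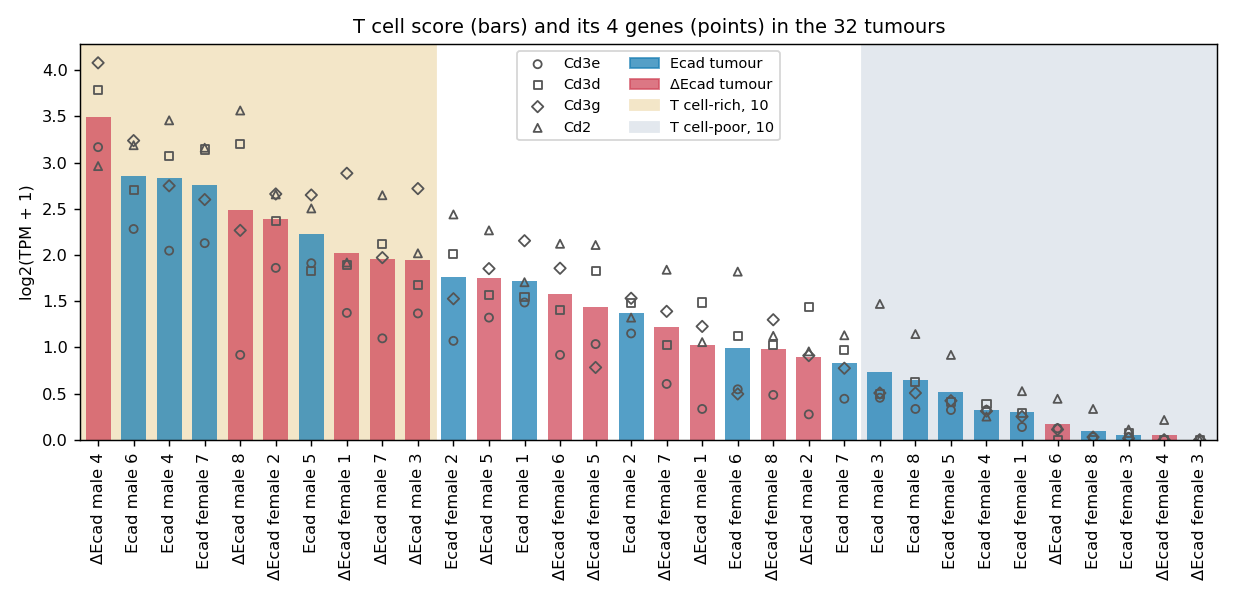
T cell score (bars, mean log2(TPM + 1) of Cd3e, Cd3d, Cd3g and Cd2) and the 4 genes (points) in each of the 32 tumours, ordered by score and coloured by genotype. The 10 T cell-rich tumours at the left run from 3.50 to 1.94 and the 10 T cell-poor tumours at the right from 0.73 to 0, with 12 tumours stepping down between them.

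By label, the T cell-rich side held 3 Ecad males, 1 Ecad female, 4 ΔEcad males and 2 ΔEcad females. The T cell-poor side held 2 Ecad males, 5 Ecad females, 1 ΔEcad male and 2 ΔEcad females. ΔEcad tumours thus made up 6 of 10 on the T cell-rich and 3 of 10 on the T cell-poor side (two-sided Fisher's exact test, p 0.370, also 0.370 adjusted over the 4 make-up tests). Males made up 7 of 10 and 3 of 10 (exact p 0.179, adjusted 0.239). Neither difference was detectable with 10 tumours a side. The group with the lowest median score was the Ecad females (0.42), below the ΔEcad females (1.33), Ecad males (1.55) and ΔEcad males (1.85), and each group held tumours of both sides. Total counts averaged 33807313 in T cell-rich and 41393079 in T cell-poor tumours (permutation test, p 0.079, adjusted 0.158).

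Skin RNA was unevenly spread over the sides. A keratinocyte score, the mean log2 CPM of 15 epidermal genes, averaged 4.49 (SD 5.78, n = 10) in T cell-rich and 0.23 (SD 3.62, n = 10) in T cell-poor tumours, and the difference of 4.26 did not pass the test (two-sided permutation test, p 0.065, adjusted 0.158). It did with 8 tumours a side (5.53, permutation p 0.0375), as mean log2(TPM + 1) (3.33, permutation p 0.0363) and without any 1 of ΔEcad male 4, 7 or 8, Ecad female 5 or 7, or Ecad male 3, all of these before adjustment. The T cell-rich side was split. Ecad male 6 (9.45), Ecad male 4 (7.04), ΔEcad female 2 (10.1), Ecad male 5 (8.67), ΔEcad female 1 (9.43) and ΔEcad male 3 (8.74) held much skin, with all 15 genes detected and 6618 to 54827 TPM in sum. ΔEcad male 4 (-0.66), Ecad female 7 (-2.93), ΔEcad male 8 (-2.72) and ΔEcad male 7 (-2.22) held little, with 16 to 64.9 TPM in sum. Counts of 0 for Krt5, Dsg3, Dsg1a and Flg were found in ΔEcad male 8 and in ΔEcad male 7. All 15 genes were also detected in ΔEcad male 4 and in some T cell-poor tumours, such as Ecad male 3. Detection alone thus does not mark the skin-holding tumours.

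No T cell-poor tumour reached a keratinocyte score of 6 (highest 4.73, Ecad male 3), and their summed keratinocyte level was 9.75 to 2421 TPM. Among the tumours between, 6 of 12 were at 6 or above. The comparison was therefore repeated with keratinocyte and melanocytic scores as covariates, and in skin-poor tumours alone, 4 T cell-rich against all 10 T cell-poor. The skin-poor comparison was chosen after the data were seen. Its T cell-rich arm holds ΔEcad male 4, Ecad female 7, ΔEcad male 8 and ΔEcad male 7.

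**Figure D2:**
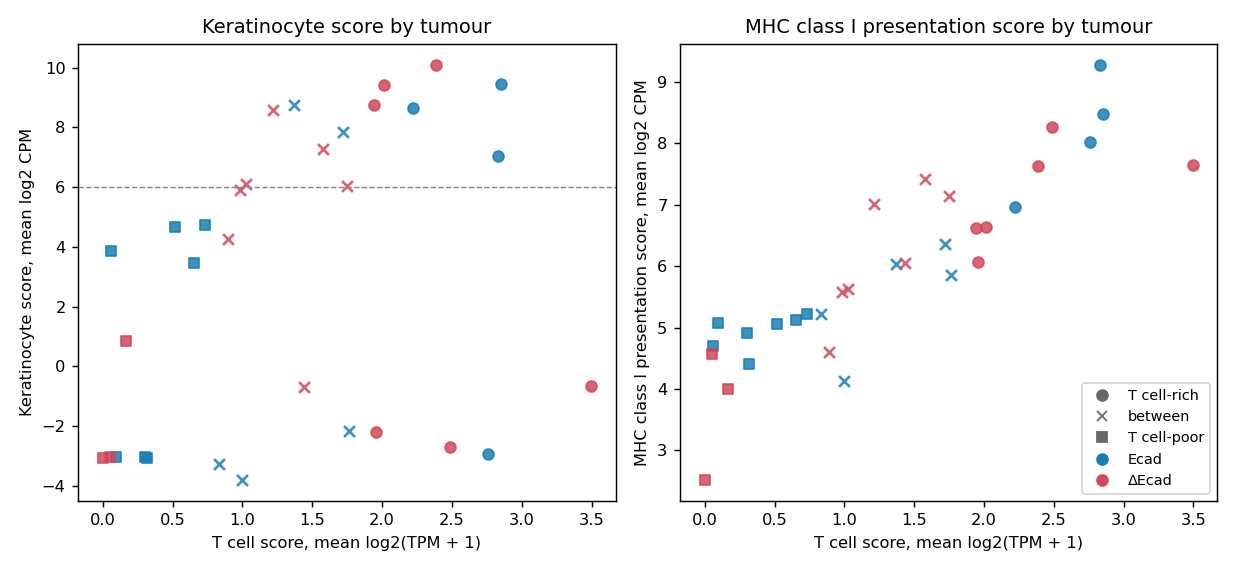
Keratinocyte score (left) and MHC class I presentation score (right), both mean log2 CPM over the list, against the T cell score of each of the 32 tumours, coloured by genotype and shaped by side; the dashed line marks a keratinocyte score of 6. The 10 T cell-rich tumours split into 6 above and 4 below the line. Their MHC class I scores (6.06 to 9.28) all lie above those of the T cell-poor tumours (2.52 to 5.22).

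On raw counts, 15928 genes other than the score genes were tested with edgeR. Fold changes are T cell-rich over T cell-poor. To be called, a gene needed an adjusted p (Benjamini-Hochberg) below 0.05 and a log2 fold change beyond 1 in either direction. Called higher in the T cell-rich tumours were 1147 genes (7.2% of those tested) and called lower 187 (1.17%), while the median log2 fold change of all genes was -0.10. Because the tumours were ordered by RNA of the same libraries, these p-values measure association with the score among these tumours. Genes with few counts were filtered out before the test. A gene nearly absent from the T cell-poor tumours could pass only through its T cell-rich values. The share of tested list members called higher is thus partly set by the filter, above all where few members were tested. DESeq2 called 3008 higher (13.1%) and 460 lower (2.01%). In TPM, every T cell-rich tumour lay above every T cell-poor tumour for 117 genes (0.735%), and below for 6 (0.0377%).

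With skin and melanocytic scores in the fit, 382 genes were called higher (2.4%) and 25 lower (0.157%). In skin-poor tumours, 209 genes were called higher (1.23%) and 4 lower (0.0236%), of which 191 and 3 were among those of the full comparison. Without the 3 tumours that stand apart, 1343 were called higher (8.25%) and 385 lower (2.37%), and with genotype and sex as covariates 841 (5.28%) and 189 (1.19%). The count of genes called lower was 301 without Ecad female 3, 290 without ΔEcad male 7, 124 without Ecad male 5 and 108 without ΔEcad female 2. Whether counting used the strand is not stated, so values of genes that overlap others in the annotation are uncertain, among them Cd3e, Tcf7, Foxp3, Vsir, Cxcl16, Cxcr6, H2-DMa, Igtp, Igkc and Csf1r. In bulk tissue, more cells of a type and more RNA per cell cannot be told apart.

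Of the 10 genes with the smallest p among those called higher, 4 act in MHC class I presentation (Nlrc5, Tap1, Psmb9 and H2-Q6). Rasgrp1, which links the T cell receptor to RAS, was at 1.17 to 5.55 TPM (median 3.35) against 0.010 to 0.32 TPM (median 0.18) in T cell-rich against T cell-poor tumours (log2 fold change 4.38, SE 0.52, adjusted p 0.000299 by edgeR). Slamf8, a receptor of activated myeloid cells, was at 1.96 to 45.9 TPM (median 10.1) against 0.060 to 1.05 TPM (median 0.44) (log2 fold change 4.84, SE 0.62, adjusted p 0.000459 by edgeR). Ptk2b, a tyrosine kinase, was at 4.55 to 42.2 TPM (median 20.9) against 0.77 to 6.79 TPM (median 2.9) (log2 fold change 2.63, SE 0.35, adjusted p 0.000459 by edgeR). For Rasgrp1 and Slamf8 the sides did not overlap, and for Ptk2b 9 of 10 T cell-rich tumours lay above the highest T cell-poor one. These genes were named for their small p, so little overlap of the sides follows from that choice. The same applies to list members named below for their small p. Of all genes tested, 0.735% had every T cell-rich tumour above every T cell-poor tumour.

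**Figure D3:**
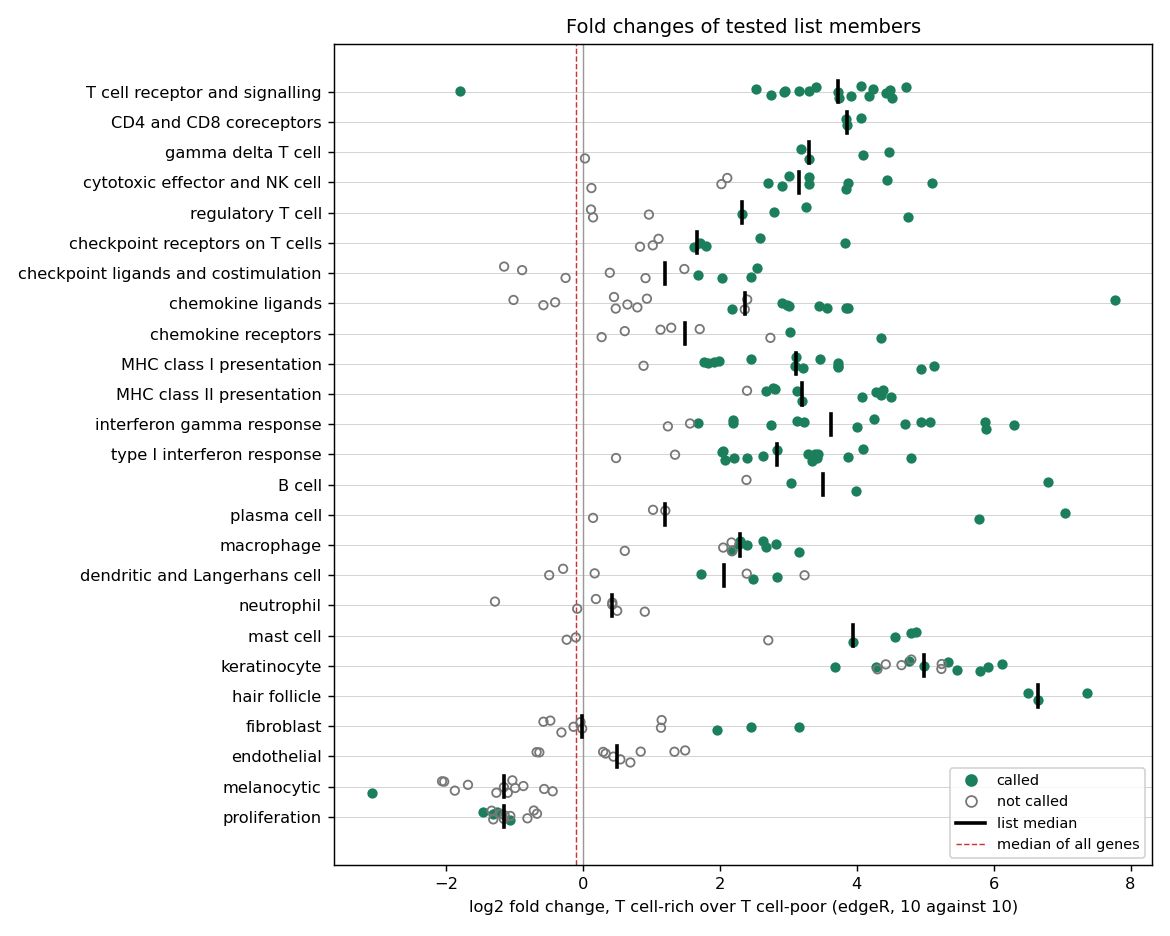
Log2 fold change (edgeR, T cell-rich over T cell-poor, 10 against 10) of each tested member of 25 gene lists, with called genes filled, list medians as black bars and the median of all genes (-0.10) as a dashed line. MHC class I, interferon gamma and T cell receptor genes lie almost wholly to the right (medians 3.12, 3.62 and 3.73), endothelial and neutrophil genes near 0 (0.50 and 0.43), and melanocytic and proliferation genes to the left (-1.15 and -1.16).

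T cell receptor genes are made by the same cells as the score genes. Their higher level was thus largely set by the choice of tumours and is a description. Of 22 receptor and signalling genes 18 were tested, 17 were called higher and 1 lower, against 7.2% and 1.17% of all genes, with a median log2 fold change of 3.73. With skin and melanocytic covariates 16 were called higher, and in skin-poor tumours 13. Trbc2, a constant region of the receptor beta chain, was at 23.2 to 162 TPM (median 36.5) against 0 to 9.49 TPM (median 0.92) (log2 fold change 4.72, SE 0.78, adjusted p 0.00122 by edgeR), and without Ecad male 3 the log2 fold change was 5.49. Lat, an adaptor of receptor signalling, was at 2.86 to 9.96 TPM (median 6.85) against 0.20 to 1.71 TPM (median 0.85) (log2 fold change 2.95, SE 0.40, adjusted p 0.000459 by edgeR). All 10 T cell-rich tumours lay above all T cell-poor tumours for both genes. Tcf7, a transcription factor of naive and memory T cells that other cells also express, went the other way, at 10.4 to 63.2 TPM (median 28.4) against 11 to 271 TPM (median 103) (log2 fold change -1.8, SE 0.48, adjusted p 0.0216 by edgeR), and it was not called with the covariates (-1.31) or in skin-poor tumours (-1.51).

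Both coreceptors were higher. Cd4, which marks helper T cells and is also found on some myeloid cells, was at 5.25 to 28.3 TPM (median 9.18) against 0 to 1.83 TPM (median 0.435) (log2 fold change 4.06, SE 0.61, adjusted p 0.000789 by edgeR). Cd8a, on cytotoxic T cells, was at 0.32 to 5.49 TPM (median 2.0) against 0 to 0.62 TPM (median 0.070) (log2 fold change 3.84, SE 0.73, adjusted p 0.00297 by edgeR), and its partner Cd8b1 at 0.73 to 9.19 TPM (median 3.15) against 0 to 0.81 TPM (median 0.14) (log2 fold change 3.86, SE 0.76, adjusted p 0.00366 by edgeR). The sides did not overlap for Cd4, and 9 of 10 T cell-rich tumours exceeded every T cell-poor tumour for Cd8a and Cd8b1. All 3 were called with the covariates and in skin-poor tumours.

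Gamma delta T cells, common in mouse skin, use other receptor chains, and 4 of 5 tested genes of a list of 12 were called higher (median 3.3). Tcrg-C1, a constant region of the gamma chain, was at 1.68 to 43.3 TPM (median 11.3) against 0 to 1.75 TPM (median 0.295) (log2 fold change 4.46, SE 0.78, adjusted p 0.00171 by edgeR), and Cd163l1, a scavenger receptor of gamma delta T cells, at 0.72 to 34.1 TPM (median 5.79) against 0 to 1.68 TPM (median 0.25) (log2 fold change 4.09, SE 0.83, adjusted p 0.00433 by edgeR). The highest tumour for both was ΔEcad male 4, whose keratinocyte score was -0.66. Trdc, Tcrg-C1, Tcrg-C2 and Cd163l1 were the 4 called, all of them also with the covariates, and Tcrg-C1 and Cd163l1 in skin-poor tumours. None of 4 immature thymocyte genes could be tested, and they summed to at most 0.74 TPM on the T cell-rich side, with Rag1 and Rag2 at 3 counts or fewer in every tumour of either side.

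Killer cell genes were mostly higher. Of 19 cytotoxic and NK cell genes 12 were tested and 9 called higher (median 3.16), while Prf1, Eomes and Klrb1c were not called. Nkg7, a granule protein, was at 5.69 to 28.4 TPM (median 14) against 0 to 4.26 TPM (median 0.38) without overlap of the sides (log2 fold change 3.85, SE 0.78, adjusted p 0.00424 by edgeR; 4.53 without Ecad male 8). Cst7, a protease inhibitor of killer cells, was at 2.23 to 14.1 TPM (median 5.75) against 0.050 to 1.32 TPM (median 0.91), also without overlap (log2 fold change 3.3, SE 0.58, adjusted p 0.0017 by edgeR). Gzmb, the granule protease granzyme B, was at 1.92 to 109.8 TPM (median 4.48) against 0 to 3.37 TPM (median 0.465) (log2 fold change 4.44, SE 1.1, adjusted p 0.0149 by edgeR), and 5 of 10 T cell-rich tumours exceeded all T cell-poor ones. The highest, Ecad male 4 at 109.8 TPM, stood far above the next at 46.9 TPM, and without it the log2 fold change was 3.55 (edgeR adjusted p 0.0327). In skin-poor tumours 3 of the 12 were called (median 3.31), and neither Gzmb (3.79) nor Nkg7 (4.15) was among them.

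Of 10 regulatory T cell genes 7 were tested and 4 called higher (median 2.32). Foxp3, the transcription factor that defines these cells, was at 0 to 1.71 TPM (median 0.64) against 0 to 0.24 TPM (median 0.085) (log2 fold change 2.79, SE 0.69, adjusted p 0.0142 by edgeR), and 8 T cell-rich tumours lay above the T cell-poor range while ΔEcad female 1 was at 0. Tnfrsf18 (GITR), a costimulatory receptor, was at 2.7 to 36.8 TPM (median 18.7) against 0.15 to 1.6 TPM (median 0.295) without overlap (log2 fold change 4.75, SE 0.60, adjusted p 0.000459 by edgeR), and Tnfrsf4 (OX40) at 4.53 to 34.7 TPM (median 14) against 1.18 to 8.82 TPM (median 1.71) with 7 of 10 above (log2 fold change 2.32, SE 0.49, adjusted p 0.00564 by edgeR). Tnfrsf18 was called with the covariates (3.72) and in skin-poor tumours (2.96), whereas Foxp3 (2.14 and 2.99) and Tnfrsf4 (1.38 and 1.15) were not. Ctla4, an inhibitory receptor of these cells, had too few counts for the test, at 0.030 to 12.9 TPM (median 1.48) against 0 to 0.39 TPM (median 0.050). Among 10 helper factors and cytokines 3 were tested and only Gata3 was called, at 0.34 to 99.6 TPM (median 13.3) against 0 to 1.3 TPM (median 0.265) (log2 fold change 5.8, SE 1.16, adjusted p 0.00404 by edgeR). Gata3 is also a factor of skin and hair follicle, and its highest tumour was the most skin-rich (ΔEcad female 2). Its log2 fold change in skin-poor tumours was 0.83 (edgeR adjusted p 0.857). That comparison does not match skin, with keratinocyte scores up to 4.73 in its T cell-poor and at most -0.66 in its T cell-rich tumours. The cause of the Gata3 difference was not tested.

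Checkpoint receptors restrain activated T cells, and of 8 tested 5 were called higher (median 1.67), namely Lag3, Havcr2, Pdcd1, Btla and Tigit. With genotype and sex as covariates 2 were called. Pdcd1 (PD-1) was at 0.28 to 28 TPM (median 1.51) against 0 to 0.88 TPM (median 0.265) (log2 fold change 3.83, SE 0.97, adjusted p 0.0166 by edgeR), with 5 of 10 T cell-rich tumours above the T cell-poor range. ΔEcad male 4 held 28 TPM, and without it the log2 fold change was 3.01 (edgeR adjusted p 0.0313). Lag3, a receptor for MHC class II, was at 1.92 to 6.87 TPM (median 4.37) against 0.53 to 3.92 TPM (median 0.945) (log2 fold change 1.72, SE 0.37, adjusted p 0.00646 by edgeR) and Havcr2 (TIM-3) at 2.11 to 15.2 TPM (median 8.1) against 0.44 to 8.05 TPM (median 1.69) (log2 fold change 1.79, SE 0.42, adjusted p 0.0108 by edgeR), both with overlapping sides. Pdcd1 alone was called with the covariates (4.49) and in skin-poor tumours (4.9), and without Ecad male 6 the list count was 3.

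On the ligand side, 4 of 10 tested genes were called higher (median 1.2), namely Vsir, Icosl, Cd86 and Cd274, and 2 with genotype and sex as covariates. Vsir (VISTA), an inhibitory ligand of myeloid cells, was at 22 to 54.9 TPM (median 33.9) against 0.77 to 19.7 TPM (median 7.12), without overlap (log2 fold change 2.03, SE 0.41, adjusted p 0.00433 by edgeR). Cd274, which encodes the PD-1 ligand PD-L1, was at 5.85 to 209.7 TPM (median 24.1) against 0.90 to 60.7 TPM (median 5.8), with 3 of 10 T cell-rich tumours above the T cell-poor range (log2 fold change 2.45, SE 0.74, adjusted p 0.0371 by edgeR). Its call was lost when any 1 of 11 tumours was left out, among them Ecad male 4, the highest at 209.7 TPM (1.81, edgeR adjusted p 0.0918), and the value was 3.34 without Ecad female 4, the highest T cell-poor tumour. It was called with the covariates (3.47) and not in skin-poor tumours (1.97).

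Chemokines draw leukocytes into tissue, and 9 of 19 tested ligands were called higher (median 2.36), 6 with the covariates and 5 in skin-poor tumours. Cxcl9, induced by interferon gamma and a ligand of CXCR3, had the largest log2 fold change of the list, at 1.71 to 687 TPM (median 9.74) against 0.020 to 1.29 TPM (median 0.45) (log2 fold change 7.78, SE 1.36, adjusted p 0.00171 by edgeR). Ecad male 4 held 687 TPM and the next tumour 274 TPM, and without Ecad male 4 the log2 fold change was 6.25. Cxcl9 did not overlap between the sides. The other CXCR3 ligands, Cxcl10 and Cxcl11, were not called.

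Cxcl16, the ligand of CXCR6, was at 46.3 to 98.1 TPM (median 83.5) against 1.09 to 22 TPM (median 10.1) without overlap and with a narrow T cell-rich range (log2 fold change 2.9, SE 0.45, adjusted p 0.000818 by edgeR). Ccl5, made by T cells and myeloid cells, was at 11 to 202 TPM (median 36.7) against 0.74 to 12.3 TPM (median 2.73) (log2 fold change 3.87, SE 0.67, adjusted p 0.0017 by edgeR), and Ccl22, a dendritic cell ligand of CCR4, at 1.39 to 9.32 TPM (median 4.53) against 0 to 1.21 TPM (median 0.28) (log2 fold change 3.85, SE 0.62, adjusted p 0.00109 by edgeR). Ccl8 was the most abundant, at 314 to 3218 TPM (median 602) against 1.51 to 402 TPM (median 41.9) (log2 fold change 3.44, SE 0.73, adjusted p 0.00599 by edgeR; 4.46 without Ecad male 8). Each of Cxcl16, Ccl5 and Ccl22 was called with the covariates and in skin-poor tumours, and Ccl8 in skin-poor tumours but not with the covariates.

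Chemokines of lymphoid tissue were uneven. Ccl21a, which guides cells bearing CCR7, was at 1.78 to 1123 TPM (median 233) against 0 to 121 TPM (median 20) (log2 fold change 3.56, SE 1.02, adjusted p 0.0303 by edgeR; 2.97 without ΔEcad male 8). Cxcl13, which attracts B cells, was at 0.21 to 444 TPM (median 13.6) against 0 to 48 TPM (median 2.53) and was not called (log2 fold change 2.36, SE 1.22, adjusted p 0.222 by edgeR); without Ecad male 4 its log2 fold change was 1.08. Ltb, a cytokine that organises lymphoid tissue, was at 2.82 to 25 TPM (median 5.96) against 0.050 to 3.36 TPM (median 0.87) (log2 fold change 2.73, SE 0.67, adjusted p 0.0132 by edgeR). Of 13 lymphoid organ and high endothelial genes 6 were tested and 3 called higher (median 2.55), and Chst4 was at 3 counts or fewer in every tumour compared. That list summed to 58.2 to 1138 TPM on the T cell-rich side and 0.27 to 127 TPM on the T cell-poor side.

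Of 8 tested chemokine receptors 2 were called higher (median 1.5). Cxcr6, of tissue-resident T cells, was at 2.1 to 42.8 TPM (median 4.69) against 0 to 1.11 TPM (median 0.415) without overlap (log2 fold change 4.35, SE 0.83, adjusted p 0.00309 by edgeR; 3.68 without ΔEcad male 4). Ccr7, of naive T cells and migrating dendritic cells, was at 0.92 to 8.43 TPM (median 3.72) against 0 to 1.56 TPM (median 0.38) (log2 fold change 3.02, SE 0.63, adjusted p 0.00514 by edgeR). Cxcr3, the receptor of Cxcl9, was at 2.98 to 50.2 TPM (median 5.79) against 1.18 to 24 TPM (median 7.88) and was not called (log2 fold change 0.27, SE 0.59, adjusted p 0.808 by edgeR), and its sign turned without Ecad female 7 (-0.44). Without Ecad female 1 the list count was 4.

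Nearly all genes of MHC class I presentation were higher. All 15 members were tested, 14 were called and Erap1 was not (median 3.12). With the covariates 14 were called, and in skin-poor tumours 13. The list score lay at 6.06 to 9.28 in T cell-rich tumours and at 2.52 to 5.22 in T cell-poor tumours, without overlap. Keratinocyte scores of the same T cell-rich tumours ran from -2.93 to 10.1. The cause of the class I difference was not tested.

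Nlrc5, the transcription factor that drives class I genes, had the smallest p of all genes called higher, at 5.93 to 64.8 TPM (median 25.8) against 0.70 to 4.21 TPM (median 1.9) (log2 fold change 3.72, SE 0.42, adjusted p 0.000266 by edgeR). Tap1, a chain of the peptide transporter, was at 19.2 to 185 TPM (median 69.4) against 2.47 to 15.4 TPM (median 7.71) (log2 fold change 3.12, SE 0.41, adjusted p 0.000459 by edgeR), and its neighbour Psmb9, a subunit of the immunoproteasome, at 12.8 to 102 TPM (median 37.9) against 0.83 to 5.29 TPM (median 3.27) (log2 fold change 3.72, SE 0.49, adjusted p 0.000459 by edgeR). Tap1 and Psmb9 overlap on chromosome 17, and reads from the shared bases could be assigned to either. For all 3 genes the lowest T cell-rich tumour was above the highest T cell-poor tumour, which follows in part from naming them for their small p.

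Of the class I heavy chains, H2-K1 was at 531 to 3991 TPM (median 1628) against 63.3 to 294 TPM (median 234) (log2 fold change 3.1, SE 0.44, adjusted p 0.000609 by edgeR), H2-D1 at 673 to 6565 TPM (median 2086) against 115 to 703 TPM (median 546) (log2 fold change 2.46, SE 0.46, adjusted p 0.00269 by edgeR) and the non-classical H2-Q6 at 30.7 to 411 TPM (median 124) against 0.070 to 13.8 TPM (median 5.02) (log2 fold change 4.94, SE 0.67, adjusted p 0.000459 by edgeR). B2m, the shared light chain, was at 2067 to 21656 TPM (median 5112) against 793 to 3620.4 TPM (median 2080.3) (log2 fold change 1.92, SE 0.49, adjusted p 0.0163 by edgeR). B2m was among the most abundant messages on both sides and overlapped between them, 5 of 10 T cell-rich tumours being above the T cell-poor range. The heavy chain genes are near-copies of each other, so counts for any 1 of them are uncertain.

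Class I and interferon-response genes are known to be switched on through short promoter elements, so the bases before the start sites of 4 of them are shown (RefSeq, GRCm38.p6, 250 bases, 5′ to 3′ on the strand of the gene). H2-D1 (chr17:35262844-35263093, plus strand) and H2-Q6 (chr17:35424600-35424849, plus strand) stand for class I, with capitals marking, from left to right, an interferon-type element and a Y box, the letters of the NF-Y site. GENCODE M21 starts H2-D1 further upstream, so its window lies inside the gene there. Igtp (chr11:58199306-58199555, plus strand) and Tgtp2 (chr11:49064213-49064462, minus strand) stand for the interferon gamma response, with capitals marking a gamma-activated site overlapped by interferon-type elements.
H2-D1: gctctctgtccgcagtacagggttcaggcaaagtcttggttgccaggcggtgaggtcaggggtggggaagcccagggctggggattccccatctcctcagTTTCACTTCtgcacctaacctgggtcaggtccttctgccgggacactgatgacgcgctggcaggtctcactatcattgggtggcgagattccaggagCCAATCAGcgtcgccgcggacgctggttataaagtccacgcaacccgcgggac
H2-Q6: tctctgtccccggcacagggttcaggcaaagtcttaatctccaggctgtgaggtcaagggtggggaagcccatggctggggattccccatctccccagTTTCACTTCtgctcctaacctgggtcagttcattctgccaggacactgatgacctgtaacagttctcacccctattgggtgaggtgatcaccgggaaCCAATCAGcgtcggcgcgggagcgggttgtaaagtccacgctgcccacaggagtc
Igtp: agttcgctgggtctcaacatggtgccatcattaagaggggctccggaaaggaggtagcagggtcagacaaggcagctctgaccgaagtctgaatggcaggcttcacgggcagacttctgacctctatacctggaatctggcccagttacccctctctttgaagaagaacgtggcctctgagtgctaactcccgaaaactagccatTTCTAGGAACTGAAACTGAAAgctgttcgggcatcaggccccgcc
Tgtp2: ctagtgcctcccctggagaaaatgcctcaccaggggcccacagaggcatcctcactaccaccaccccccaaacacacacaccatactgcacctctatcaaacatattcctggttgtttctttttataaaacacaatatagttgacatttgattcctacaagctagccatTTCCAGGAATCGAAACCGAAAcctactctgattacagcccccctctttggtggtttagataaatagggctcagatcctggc

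The elements were searched as letters on both strands, namely TTCNNNGAA (the gamma-activated site), the interferon-stimulated response element (ISRE, taken as GAAA, any 2 bases and GAAA), GAANNGAAA (an interferon-type element found in class I promoters) and CTGATTGG (Y box). Hits of different elements may overlap, as they do in Igtp and Tgtp2. In H2-D1 the interferon-type element began 150 bases and the Y box 53 bases before the start, and in H2-Q6 152 and 55 bases before it. In Igtp the gamma-activated site began 45 bases before the start, and in Tgtp2 81 bases before it.

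Among 27025 genes with a window, 8.13% held TTCNNNGAA, 3.46% the ISRE, 7.3% GAANNGAAA and 4.43% CTGATTGG. Of 13 class I genes with a window, 5 (38.5%) held GAANNGAAA and 6 (46.2%) CTGATTGG. Of 12 interferon gamma response genes, 7 (58.3%) held TTCNNNGAA and 10 (83.3%) the ISRE, and of 12 type I interferon response genes 7 (58.3%) held the ISRE. Of 8 class II genes 3 (37.5%) held CTGATTGG. None of the 4 was found in 12 T cell receptor and 10 keratinocyte genes with a window. A match of letters is a description and not a measured site.

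MHC class II genes, which present peptides to CD4 T cells, were higher too. Of 11 tested, 10 were called higher and H2-Ob was not (median 3.2), with 6 called under the covariates (median 3.08) and 6 in skin-poor tumours (median 3.59). Cd74, the invariant chain, was at 163 to 2828 TPM (median 1004) against 6.48 to 229 TPM (median 54.7) (log2 fold change 4.08, SE 0.64, adjusted p 0.000915 by edgeR). H2-Eb1, a beta chain, was at 83.1 to 1566 TPM (median 534) against 0.53 to 101 TPM (median 11.2) (log2 fold change 4.38, SE 0.80, adjusted p 0.00236 by edgeR), and H2-DMa, which loads the peptide, at 12.8 to 215 TPM (median 52.3) against 2.96 to 14.9 TPM (median 7.09) (log2 fold change 3.2, SE 0.46, adjusted p 0.000609 by edgeR). For each of the 3 genes, 9 of 10 T cell-rich tumours lay above the T cell-poor range, and all were called with the covariates and in skin-poor tumours.

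Genes of the interferon gamma response were higher as well. Of 17 genes 16 were tested and 14 called higher (median 3.62), with Socs1 and Gbp7 not called, and 13 were called with the skin and melanocytic covariates, 11 in skin-poor tumours and 10 with genotype and sex as covariates. Tgtp2, a GTPase against intracellular parasites, was at 0.93 to 170.3 TPM (median 7.77) against 0.020 to 0.82 TPM (median 0.515) (log2 fold change 6.3, SE 1.03, adjusted p 0.00118 by edgeR), and the related Igtp at 14.3 to 625 TPM (median 56.3) against 4.09 to 13.5 TPM (median 6.21) (log2 fold change 4.26, SE 0.71, adjusted p 0.00131 by edgeR). Gbp4 was at 2.1 to 161 TPM (median 6.76) against 0.080 to 1.32 TPM (median 0.59) (log2 fold change 5.89, SE 0.93, adjusted p 0.000929 by edgeR), and Gbp8, outside the lists and overlapping Gbp4 in the annotation, at 0.71 to 26.4 TPM (median 4.25) against 0.060 to 0.45 TPM (median 0.185) (log2 fold change 4.99, SE 0.68, adjusted p 0.000459 by edgeR). These 4 did not overlap between the sides.

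Gbp2, another guanylate-binding protein, was at 17.3 to 2170.2 TPM (median 46.5) against 2.51 to 27.7 TPM (median 13.2) (log2 fold change 4.7, SE 0.91, adjusted p 0.00346 by edgeR), with 9 of 10 above. Ecad male 4 was the highest tumour for all 5, and without it the log2 fold change was 5.42 for Tgtp2, 3.44 for Igtp, 4.96 for Gbp4, 4.35 for Gbp8 and 3.36 for Gbp2, each still called. Irgm1 was at 13.8 to 391 TPM (median 47.4) against 5.09 to 62 TPM (median 18) (log2 fold change 2.19, SE 0.63, adjusted p 0.0301 by edgeR), and its call was lost without Ecad male 4 (1.63, edgeR adjusted p 0.0708) and without Ecad male 6 (edgeR adjusted p 0.0517). Gbp and Tgtp genes are near-copies within their families, so single-gene counts are uncertain.

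Type I interferon response genes, which defend against viruses, were higher in 15 of 17 tested (median 2.83), 14 with the skin and melanocytic covariates (median 3.37) and 9 in skin-poor tumours (median 3.15). With genotype and sex as covariates, which were unevenly spread over the sides, 8 were called (median 2.54). Oas1a, which activates RNA decay, was at 4.96 to 53.8 TPM (median 14.7) against 0.040 to 2.51 TPM (median 1.22) without overlap (log2 fold change 3.87, SE 0.60, adjusted p 0.000886 by edgeR), and the nucleic acid sensor Zbp1 at 2.78 to 112 TPM (median 10.4) against 0.080 to 3.7 TPM (median 0.74) with 8 of 10 above (log2 fold change 4.8, SE 0.83, adjusted p 0.00163 by edgeR). Bst2 (tetherin) was at 89.7 to 1487 TPM (median 372) against 45.4 to 216 TPM (median 116) (log2 fold change 2.04, SE 0.53, adjusted p 0.0188 by edgeR). Isg15, a ubiquitin-like protein, was at 10.6 to 179.9 TPM (median 38.9) against 0.31 to 43.6 TPM (median 10.2) (log2 fold change 2.21, SE 0.65, adjusted p 0.0343 by edgeR) and Ifit3 at 20.4 to 426 TPM (median 48.2) against 2.38 to 83.2 TPM (median 8.63) (log2 fold change 2.39, SE 0.72, adjusted p 0.0378 by edgeR), and for both most T cell-rich tumours lay within the T cell-poor range. Both calls could be lost by leaving out 1 tumour. Isg15 was lost when any 1 of 7 tumours was left out, for example without Ecad male 4 (edgeR adjusted p 0.0714), and Ifit3 when any 1 of 10 was, for example without ΔEcad male 4 (edgeR adjusted p 0.0757), while without Ecad male 3 the log2 fold change of Ifit3 was 3.01.

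B lineage genes were higher on the T cell-rich side. Only 4 of 12 B cell genes could be tested and 3 were called higher (median 3.51), Ighm, Blk and Cd22, while Cd79b was not. Ighm, the heavy chain of IgM, was at 16.4 to 2803 TPM (median 81.2) against 0 to 10.1 TPM (median 1.57) (log2 fold change 6.8, SE 1.16, adjusted p 0.00143 by edgeR), and without ΔEcad male 7, which held 2803 TPM, the log2 fold change was 5.34. Blk, a kinase that gamma delta T cells also express, was at 0.63 to 18.6 TPM (median 2.53) against 0 to 1.04 TPM (median 0.14) (log2 fold change 3.99, SE 0.81, adjusted p 0.00439 by edgeR), and Cd22, an inhibitory receptor, at 2.63 to 14 TPM (median 4.89) against 0 to 2.05 TPM (median 0.615) (log2 fold change 3.04, SE 0.66, adjusted p 0.00645 by edgeR). The sides did not overlap for Ighm and Cd22.

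Of 8 plasma cell genes 5 were tested and 2 called higher (median 1.2). Igkc, the kappa light chain, was at 48.5 to 17967 TPM (median 338) against 0 to 68.4 TPM (median 8.31) (log2 fold change 7.04, SE 1.41, adjusted p 0.00401 by edgeR), with Ecad female 7 at 17967 TPM, and the log2 fold change without that tumour was 5.61. Jchain, which joins IgM and IgA, was at 0.73 to 204 TPM (median 5.24) against 0 to 3.78 TPM (median 0.235) (log2 fold change 5.78, SE 1.27, adjusted p 0.00694 by edgeR), and leaving out Ecad female 7, ΔEcad male 7 or Ecad male 3 gave 5.17, 5.06 or 6.73. Xbp1, Prdm1 and Derl3, factors of secretory cells, were not called.

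Macrophage genes were higher on the T cell-rich side, 8 of 12 tested (median 2.29), with 5 called under the skin and melanocytic covariates (median 2.27), 2 in skin-poor tumours (median 2.87) and 4 with genotype and sex as covariates (median 2.38). They summed to 1381 to 5126 TPM in T cell-rich and 16.2 to 1711 TPM in T cell-poor tumours. Csf1r, the receptor that sustains macrophages, was at 35.4 to 230.1 TPM (median 62.8) against 2.74 to 51.8 TPM (median 13.2) (log2 fold change 2.17, SE 0.46, adjusted p 0.00578 by edgeR), and the lysosomal Cd68 at 184 to 1241 TPM (median 615) against 5.7 to 228 TPM (median 149.9) (log2 fold change 2.29, SE 0.48, adjusted p 0.0055 by edgeR). C1qa, a complement subunit, was at 185 to 1981 TPM (median 721) against 0 to 529 TPM (median 131) and was not called (log2 fold change 2.05, SE 0.76, adjusted p 0.0843 by edgeR), but it was without ΔEcad female 3 (1.91, edgeR adjusted p 0.0297).

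Of 8 tested dendritic and Langerhans cell genes 3 were called higher (median 2.06) and none with the covariates (median 0.87) or in skin-poor tumours (median 1.58). Itgax (CD11c) was at 8.43 to 93.1 TPM (median 27.1) against 0 to 17.2 TPM (median 2.93) (log2 fold change 2.83, SE 0.79, adjusted p 0.0267 by edgeR), and its call was lost without Ecad male 5 (edgeR adjusted p 0.0546). Flt3, a receptor of dendritic cell precursors, was at 0.13 to 1.95 TPM (median 0.805) against 0 to 0.50 TPM (median 0.050) (log2 fold change 2.48, SE 0.69, adjusted p 0.0267 by edgeR), and Batf3, a factor of cross-presenting dendritic cells, at 1.89 to 7.58 TPM (median 4.49) against 0.35 to 2.44 TPM (median 1.15) with 9 of 10 above (log2 fold change 1.72, SE 0.41, adjusted p 0.0113 by edgeR).

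No neutrophil gene of 7 tested was called with edgeR or DESeq2, and 0 had an unadjusted p under 0.05 (median 0.43). S100a8, a calcium-binding protein of neutrophils, was at 7.83 to 1913 TPM (median 133) against 1.11 to 2137 TPM (median 37.4) (log2 fold change 0.90, SE 1.14, adjusted p 0.65 by edgeR), and the highest tumour of either side was T cell-poor, Ecad female 4. Leaving out 1 tumour moved its log2 fold change between 0.03 (Ecad male 4) and 3.19 (Ecad female 4).

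Mast cells reside in the dermis, and 4 of 7 tested mast cell genes were called higher (median 3.94). None was called with the skin and melanocytic covariates (median 2.47) or in skin-poor tumours, where the median of 3.47 was nearly as large, and 1 was with genotype and sex as covariates (median 4.48). The proteases Cma1, Cpa3 and Mcpt4 were at 0.070 to 339.6 TPM (median 87.7) against 0 to 15.3 TPM (median 0.46) (log2 fold change 4.87, SE 1.16, adjusted p 0.0117 by edgeR), 0 to 205 TPM (median 46.1) against 0 to 11.1 TPM (median 0.245) (log2 fold change 4.79, SE 1.26, adjusted p 0.0198 by edgeR) and 0.070 to 648 TPM (median 154) against 0 to 58.4 TPM (median 1.2) (log2 fold change 3.94, SE 1.22, adjusted p 0.043 by edgeR). Without Ecad male 8, the highest T cell-poor tumour, their log2 fold changes were 6.02, 6.09 and 5.28. The call of Mcpt4 was lost when any 1 of 14 tumours was left out, with adjusted p (edgeR) from 0.0537 to 0.0659. The lowest T cell-rich tumour for all 3 was Ecad female 7, with little skin, and the highest ΔEcad male 7, also with little skin.

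**Figure D4:**
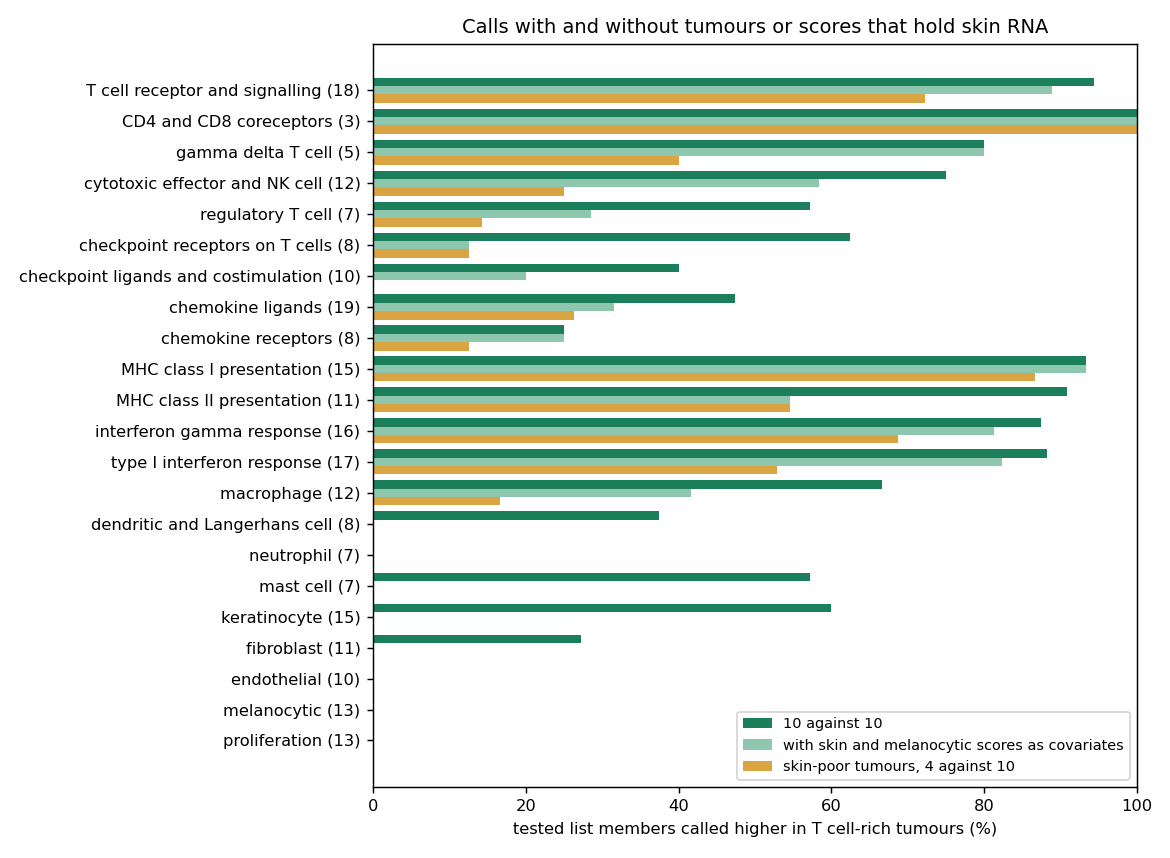
Share of tested list members called higher in T cell-rich tumours (%, edgeR) in the 10 against 10 comparison, with keratinocyte and melanocytic scores as covariates, and in skin-poor tumours (4 against 10); numbers in parentheses are tested members. Of 15 class I genes 14, 14 and 13 are called, and keratinocyte (9 of 15), mast cell (4 of 7) and dendritic cell (3 of 8) genes go to 0 calls in both; the keratinocyte score itself set both comparisons, and the skin-poor median log2 fold change was -4.90 for keratinocyte, 3.47 for mast cell and 1.58 for dendritic cell genes.

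Keratinocyte genes were called higher in 9 of 15 (median 4.99), and 6 with genotype and sex as covariates. None was called with the skin covariate or in skin-poor tumours, which these same 15 genes defined, so that loss was set by the choice and is no result. With 1 tumour left out the count was 2 without Ecad male 6, 3 without ΔEcad female 2, 4 without Ecad male 5, Ecad female 8, ΔEcad female 1, ΔEcad female 4 or ΔEcad male 6, and 5 without Ecad female 4, Ecad male 8 or ΔEcad male 3. Krt14, the keratin of basal epidermis, was at 0.040 to 9186 TPM (median 3224) against 0 to 1141 TPM (median 17.6) and was not called (log2 fold change 4.3, SE 1.94, adjusted p 0.159 by edgeR; 5.49 without Ecad female 5, also not called). Trp63, the factor of basal keratinocytes, was at 0.020 to 54.2 TPM (median 14.1) against 0 to 1.82 TPM (median 0.355) (log2 fold change 4.99, SE 1.41, adjusted p 0.0283 by edgeR), and its call was lost without Ecad male 6 (edgeR adjusted p 0.051). Sbsn, of the upper epidermis, was at 0.83 to 514 TPM (median 138) against 0.37 to 18.2 TPM (median 3.71) (log2 fold change 4.29, SE 1.05, adjusted p 0.0134 by edgeR). The 6 skin-holding T cell-rich tumours lay above every T cell-poor tumour for each of these genes, and in skin-poor tumours the log2 fold changes were -6.51, -4.3 and -1.75.

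All 3 tested hair follicle genes of a list of 15 were called higher (median 6.65), 1 with genotype and sex as covariates and none in skin-poor tumours. The other 12 were not tested, and 3 of 3 called is partly set by the low-count filter. Krt25, an inner root sheath keratin, was at 0 to 1281 TPM (median 14.1) against 0 to 6.93 TPM (median 0) (log2 fold change 7.37, SE 1.97, adjusted p 0.0213 by edgeR), and its call was lost without ΔEcad female 2 (5.1, edgeR adjusted p 0.0807) while without Ecad male 8 the value was 9.75. Tchh (trichohyalin) was at 0.050 to 202 TPM (median 5.36) against 0.030 to 1.38 TPM (median 0.205) (log2 fold change 6.5, SE 1.31, adjusted p 0.00427 by edgeR), with 4.99 without ΔEcad female 2 and 7.31 without Ecad male 8. The T cell-rich side thus held skin RNA together with T cell RNA in 6 tumours and T cell RNA with little skin RNA in 4.

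Stromal lists differed in their calls. Of 11 fibroblast genes 3 were called higher (median -0.01), against 7.2% of all genes tested. None was called without the 3 tumours that stand apart or with genotype and sex as covariates. Col1a1, a fibrillar collagen, was at 129 to 1213 TPM (median 675) against 15.9 to 4361 TPM (median 546) (log2 fold change -0.48, SE 0.71, adjusted p 0.71 by edgeR), Dpt at 2.13 to 687 TPM (median 114) against 0.82 to 41 TPM (median 14.8) (log2 fold change 3.16, SE 0.84, adjusted p 0.0206 by edgeR) and Lum at 3.42 to 457 TPM (median 58.7) against 0.11 to 44.5 TPM (median 14.3) (log2 fold change 2.45, SE 0.72, adjusted p 0.0334 by edgeR). The call of Lum was lost without ΔEcad male 7 (1.72, edgeR adjusted p 0.0788), without Ecad female 8 and without ΔEcad female 4. None of 10 endothelial, 10 skeletal muscle and 5 red blood cell genes was called with edgeR (2, 2 and 0 at an unadjusted p under 0.05), while DESeq2 called 1, 2 and 0 of them.

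Of 13 melanocytic genes 1 was called lower, Trpm1, a channel gene of pigment cells (median -1.15). It was at 0.15 to 73.5 TPM (median 9.93) against 1.22 to 363 TPM (median 134) (log2 fold change -3.09, SE 0.91, adjusted p 0.0345 by edgeR), and the call was lost without Ecad male 5, Ecad male 6, ΔEcad female 2 or ΔEcad female 4 (edgeR adjusted p 0.0542, 0.0584, 0.0613 and 0.0606). Dct, an enzyme of melanin synthesis, was at 4.98 to 22378 TPM (median 10638) against 1917 to 50656 TPM (median 14825) and was not called (log2 fold change -0.87, SE 0.71, adjusted p 0.461 by edgeR). Melanocytic genes summed to 32.2 to 38273 TPM on the T cell-rich and 10092 to 76932 TPM on the T cell-poor side, the lowest being ΔEcad male 7. Without the 3 tumours that stand apart 5 of 13 were called lower.

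Of 13 proliferation genes 4 were called lower in T cell-rich tumours (median -1.16), namely Ccnb2, Mcm2, Ccnb1 and Cdk1, against 1.17% of all genes tested. Ccnb2, a mitotic cyclin, was at 15.8 to 95.5 TPM (median 35.8) against 19.6 to 164 TPM (median 75.4) (log2 fold change -1.07, SE 0.28, adjusted p 0.0192 by edgeR), with its log2 fold change at -0.95 without ΔEcad female 3 and -0.98 without ΔEcad female 4, under the limit of 1 in size. Mcm2, of the replicative helicase, was at 8.64 to 41.1 TPM (median 14.8) against 13.5 to 133 TPM (median 37.2) (log2 fold change -1.25, SE 0.34, adjusted p 0.0227 by edgeR). The sides overlapped for both, with 1 and 4 of 10 T cell-rich tumours below the T cell-poor range. Without the 3 tumours that stand apart 11 of 13 were called lower, and in skin-poor tumours none.

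The next genes are from the 10 with the smallest p of those called lower, so little overlap of the sides follows from that choice. Ano10, of a family of membrane channels and scramblases, was at 20.5 to 36.8 TPM (median 24) against 37.4 to 96.5 TPM (median 48.9) without overlap (log2 fold change -1.15, SE 0.22, adjusted p 0.00306 by edgeR; -0.995 without ΔEcad male 6). Gpr137c was at 0.15 to 1.01 TPM (median 0.365) against 0.84 to 4.15 TPM (median 1.62), 9 of 10 T cell-rich tumours being below the T cell-poor range (log2 fold change -2.24, SE 0.36, adjusted p 0.00117 by edgeR). Adam12, a metalloprotease, was at 1.86 to 25.7 TPM (median 8.13) against 12.9 to 72.1 TPM (median 29.1) (log2 fold change -1.95, SE 0.36, adjusted p 0.00249 by edgeR), and Gas2l3, a cytoskeletal linker of dividing cells, at 4.32 to 23.6 TPM (median 14.6) against 19.7 to 62.5 TPM (median 28) (log2 fold change -1.48, SE 0.28, adjusted p 0.00326 by edgeR), each with 8 of 10 below.

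Slc7a1, a carrier of arginine and lysine, was at 6.92 to 14.5 TPM (median 10.3) against 12.1 to 42.4 TPM (median 20.2) (log2 fold change -1.26, SE 0.23, adjusted p 0.00247 by edgeR), and Fermt2, an integrin activator, at 32.4 to 87.4 TPM (median 55.8) against 72.3 to 223 TPM (median 115) (log2 fold change -1.06, SE 0.21, adjusted p 0.00427 by edgeR; -0.98 without Ecad female 4 and -0.98 without ΔEcad female 2). Of these 6 genes, Gpr137c (-2.5 and -2.62) and Gas2l3 (-1.42 and -2.0) were also called lower with the covariates and in skin-poor tumours. Ano10 (-0.89 and -0.97) and Adam12 (-1.18 and -1.98) were not. The outcomes for Slc7a1 and Fermt2 in these fits are not reported here.

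Wnt and TGF-beta genes are known to relate to T cell exclusion, and few of those listed were called. Of 9 beta-catenin targets, Nkd1, a feedback inhibitor, was called lower at 2.01 to 11.6 TPM (median 7.14) against 0.34 to 231 TPM (median 40.8) (log2 fold change -3.53, SE 0.80, adjusted p 0.00854 by edgeR) and Rnf43, another, higher at 0.11 to 8.34 TPM (median 1.71) against 0 to 0.41 TPM (median 0.030) (log2 fold change 4.14, SE 0.91, adjusted p 0.00694 by edgeR; 4.77 without Ecad female 3). Nkd1 was highest in ΔEcad female 4. The ligand genes Tgfb1, Tgfb2 and Tgfb3 were not called. Amy1, a salivary amylase, was called lower at 0.27 to 11.7 TPM (median 5.42) against 0.30 to 5037 TPM (median 0.93) (log2 fold change -7.05, SE 2.07, adjusted p 0.0339 by edgeR) through 1 tumour, Ecad female 3, and without it the log2 fold change was 2.38 (edgeR adjusted p 0.0179).

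The genes the study centres on were not called with edgeR or DESeq2, and of 5 tested 0 had an unadjusted p under 0.05. Cdh1 was at 2.17 to 282 TPM (median 91.4) against 0.17 to 156 TPM (median 51.9) (log2 fold change 0.75, SE 0.97, adjusted p 0.659 by edgeR). Keratinocytes also express Cdh1, and its log2 fold change was -1.43 with the covariates and -3.28 in skin-poor tumours, neither called. Esr1, the oestrogen receptor, was at 0.45 to 3.13 TPM (median 1.7) against 0.23 to 3.83 TPM (median 2.04) (log2 fold change -0.24, SE 0.41, adjusted p 0.744 by edgeR). Grpr, the receptor of gastrin-releasing peptide, was at 0 to 73.1 TPM (median 0.15) against 0 to 263 TPM (median 0.125), with too few counts in most tumours for the test and single high tumours on either side (ΔEcad female 1 and ΔEcad female 3).

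Within 1 genotype the sides were smaller. Among Ecad tumours, 4 T cell-rich against 7 T cell-poor, 151 genes were called higher (0.886%) and 4 lower (0.0235%), with 12 of 15 class I genes and 11 of 16 interferon gamma genes among those higher. Among ΔEcad tumours, 6 against 3, edgeR called 0 genes (0.0%), while 3779 genes had an unadjusted p below 0.05 and the smallest adjusted p was 0.062. Whether the effect differed between genotypes was tested by interaction. EdgeR called 0 of 18824 genes (774 at an unadjusted p under 0.05, smallest adjusted p 0.309) and DESeq2 77. For the sex labels edgeR also called 0 (1316 at an unadjusted p under 0.05, smallest adjusted p 0.682) and DESeq2 4.

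The 12 tumours between the sides entered no test of the 10 against 10 comparison. Cd4 was at 0.91 to 16.1 TPM (median 4.47) there, Nlrc5 at 0.45 to 39.2 TPM (median 9.6), Cd74 at 75.5 to 638 TPM (median 231) and Cxcl9 at 0.21 to 29.1 TPM (median 2.82). Each median lay between those of the sides. Class I scores of these tumours ran from 4.13 to 7.42 and overlapped both sides. Krt14, at 0 to 5701 TPM (median 643) in these tumours, spanned both skin-rich and skin-poor levels.

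**Figure D5:**
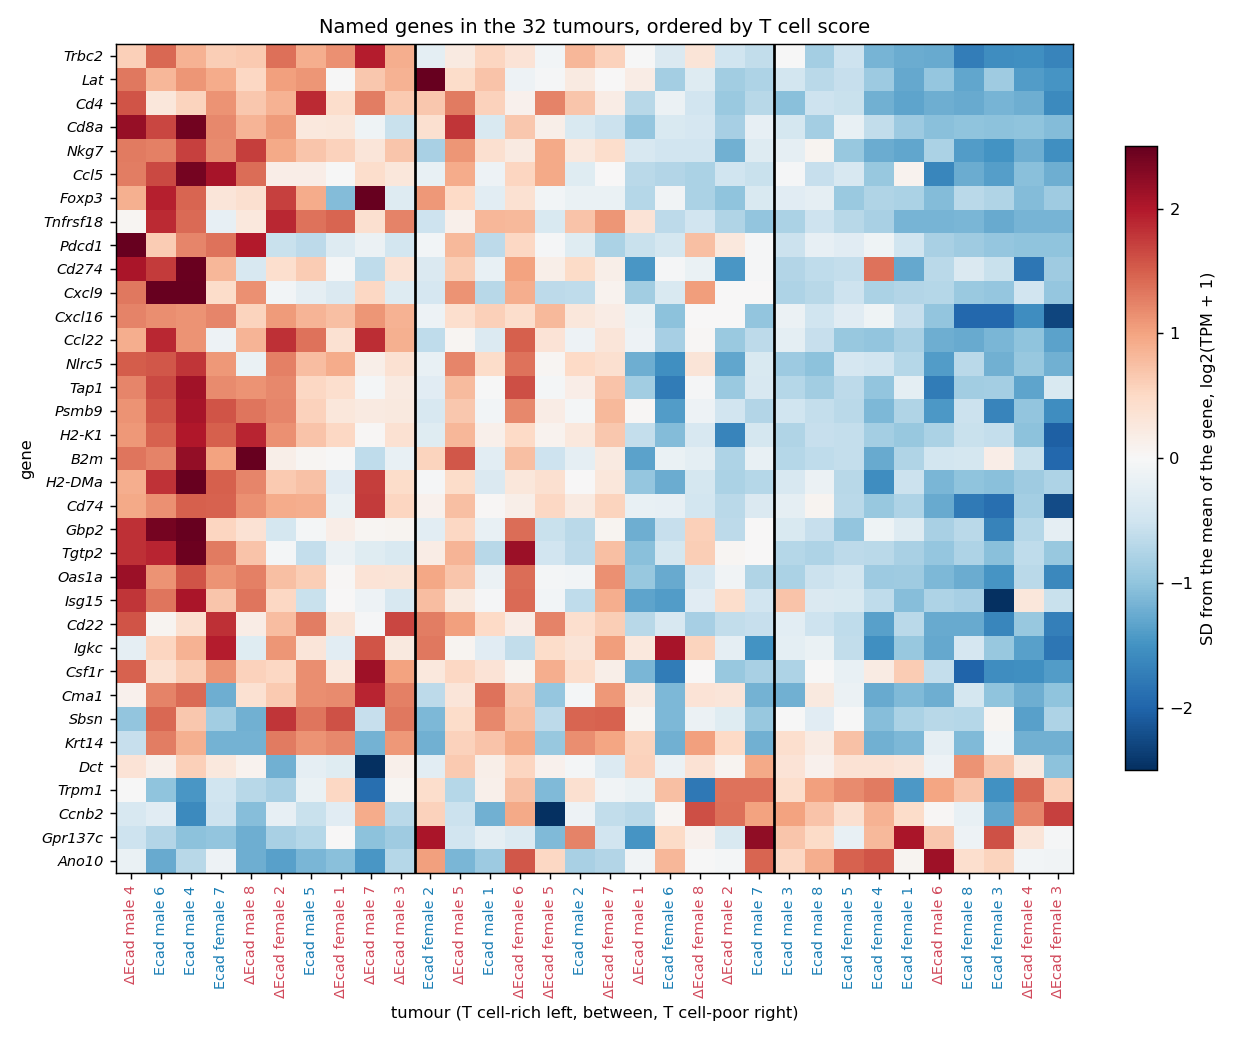
Levels of 35 named genes (rows) in the 32 tumours (columns, ordered by T cell score, with lines at the borders of the sides), each gene as SD from its own mean of log2(TPM + 1). T cell, class I, class II and interferon genes are mostly higher in the 10 columns at the left than in the T cell-poor columns. Interferon genes vary among the T cell-rich tumours, with Ecad male 4 the highest for Cxcl9, Gbp2 and Tgtp2. Some of their values lie below those of tumours between, such as Tgtp2 at 0.93 TPM in Ecad male 5 against 105.5 TPM in ΔEcad female 6. Sbsn and Krt14 alternate between the 6 skin-holding and 4 skin-poor T cell-rich tumours.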

How the data were processed

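RNA of 32 primary tumours was extracted with the miRNeasy kit and sequenced from stranded polyA libraries with paired reads of 100 bases. The authors mapped the reads with STAR to mm10 (GRCm38.p5, GENCODE M13) and deposited 2 tables of 50600 genes, raw counts and TPM. The submitters' processing notes also name FastQC 0.11.5. Batch correction is described as made where applicable and is not stated for these tumours, and the deposited counts were whole numbers. Whether counting used the strand is not given in the sources used here. GENCODE M21 (GRCm38) gave symbols and coordinates for 50376 identifiers, and RefSeq the promoter sequences.

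Genotype and sex are those of the labels. The labels give no more than 1 number per tumour, so p-values measure the spread between these tumours. The members, lists, tests and the rule for named genes were chosen with earlier results of these data known. Named were the score genes, the top 10 called genes by p, higher and lower, in each of 36 lists the 3 tested members with the highest mean TPM and the 2 with the smallest p, and 18 genes chosen for their role. That rule gave 168 genes, of which 99 have values in the text, and some are not reported here. Genes that the text lists by name alone as called or not called were added to complete the counts.

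The counts of the 20 tumours were fitted with edgeR 4.0.16 (quasi-likelihood, two-sided, robust estimation, TMM scaling, filterByExpr by side), which kept 15932 genes with a common dispersion of 0.523. Standard errors (SE) of fold changes were computed from the test statistics. Lists were scored as the mean log2 CPM with a prior count of 1. Score differences were tested over 100000 permutations and tumour labels with Fisher's exact test. A count of 0 allows up to 3 counts, which covers counting error only, since reads carry no molecular identifiers. On counts simulated for the 15932 genes with 200 changed, 96% of those changed by 4 and 75% of those changed by 2 on the log2 scale were called, 8 unchanged genes were called, and none had the wrong sign. Alternatives were DESeq2 1.42.0, limma 3.58.1 on voom weights or log2(TPM + 1), other size factors, filters, thresholds, scores, side sizes and covariates, the tumour number as a block, and each tumour left out. The skin-poor comparison and the one without the 3 tumours that stand apart were chosen after seeing the data. Software was R 4.3.3, Python 3.11.15, matplotlib 3.10.9, scipy 1.17.1, numpy 2.4.6 and pandas 2.3.3.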

Additional observations from a re-analysis of the deposited data

Results flagged for a closer look

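In 32 of 262 sets of 10 values (12.2%), each a list score or a gene in 1 side, the highest or lowest tumour lay further from the rest than Dixon's limit for 10 values (0.466). Chance flags about 1 in 20. Values are mean log2 CPM for lists and log2 CPM for genes, and no explanation was tested.

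ΔEcad female 3 was the low tumour of the T cell-poor side for MHC class I presentation (2.52), plasma cell (-3.55), macrophage (-3.34), endothelial (-2.76) and red blood cell (-5.59) lists. It was also low for Cd4 (-5.59), H2-K1 (5.61), H2-D1 (6.45), H2-Q6 (-4.01), Cd68 (1.10), C1qa (-5.59) and Lum (-3.27). This tumour had a T cell score of 0.

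Ecad female 3 was the low T cell-poor tumour for the interferon gamma list (-0.71), the study genes (1.41), Gbp2 (1.14), Tgtp2 (-4.94), Isg15 (-3.35) and Esr1 (0.17), and the high one for the salivary list (7.38) and Amy1 (12.6). The hair follicle list was high in Ecad male 8 (0.40), also T cell-poor.

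On the T cell-rich side, ΔEcad male 7 was low for the melanocytic list (-0.86), Dct (1.98) and Ccl21a (-0.82). Ecad female 7 was low for the mast cell list (-2.81), Cpa3 (-5.25), Cma1 (-4.25) and Mcpt4 (-4.25). ΔEcad female 1 was low for Lat (1.53) and Foxp3 (-5.12), ΔEcad male 8 for Ptk2b (3.81) and Ecad male 5 for the immature thymocyte list (-4.85).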

How the results depend on the processing

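The number of genes called higher (1147) and lower (187) moved with the fit. DESeq2 gave 3008 and 460, limma voom 1969 and 468, no low-count filter 2229 and 299, the keratinocyte and melanocytic covariates 382 and 25, an adjusted p under 0.01 461 and 38, skin-poor tumours 209 and 4, Ecad tumours alone 151 and 4, and ΔEcad tumours alone 0 and 0. Genes called lower were 76 with limma on log2 TPM, 96 with the continuous score, 385 without the tumours that stand apart and 493 with no fold change threshold. Leaving out 1 tumour gave 837 to 1378 higher and 108 to 301 lower. The causes were not tested.

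With the tumour number as a replicate block 344 genes were called higher and 17 lower. The labels link same-numbered tumours by that number alone, and no pairing was used in the main fit. Correlations of their deviations ran from -0.34 to 0.43, which cannot show whether such tumours share a batch.

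Interactions gave 0 calls in edgeR, also with each tumour left out, and with DESeq2 77 for genotype and 4 for sex. The keratinocyte difference (4.26) was 5.53 with 8 tumours a side (permutation p 0.0375), 3.33 as mean log2(TPM + 1) (permutation p 0.0363) and 3.64 to 5.08 with 1 tumour left out, passing p 0.05 without ΔEcad male 4, 7 or 8, Ecad female 5 or 7, or Ecad male 3. The total count difference (-7585766) was -7205480 with 12 a side (permutation p 0.0453) and -9085240 to -5082430 with 1 left out.

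Among 84 called genes, 2966 of 3359 comparisons with an alternative kept the call, 380 lost it and 13 turned the sign. Among 9 genes not called, 340 of 360 kept it, 5 gained a call and 15 turned the sign. Amy1 turned to 2.44 without the tumours that stand apart, 2.21 with DESeq2, 0.18 with limma on log2 TPM, 2.18 with voom, 2.13 with the block, 2.03 in ΔEcad tumours and 2.38 without Ecad female 3 (-7.23 to 2.38 with 1 tumour left out). In skin-poor tumours the sign turned for Cdh1 (-3.28), Cxcl13 (-0.35), Krt14 (-6.51), Krt25 (-2.86), S100a8 (-0.072), Sbsn (-1.75) and Trp63 (-4.30). With the covariates it turned for Cdh1 (-1.43), Dpt (-0.92), Esr1 (0.18), Krt14 (-0.43), Krt25 (-0.25) and Trp63 (-0.45). Esr1 was also 0.52 with 12 a side and 0.010 with the continuous score. Col1a1 turned to 0.82 with limma on log2 TPM, 0.64 with voom and 0.11 without ΔEcad female 3 (-0.63 to 0.11 with 1 left out), and Cxcr3 to -0.46 with voom, -0.17 with the block and -0.44 without Ecad female 7 (-0.44 to 0.66 with 1 left out).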

Other observations

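Tissues next to the tumours were described with the same fit. Of 7 tested adipocyte genes 1 was called higher in T cell-rich tumours (Lep, the fat hormone leptin), and of 6 tested Schwann cell genes 1 (Mbp, a myelin protein), with list medians of 2.74 and 0.17 on the log2 scale. Of all genes tested 7.2% were called higher, so single calls in lists this short are no result about these tissues. The muscle list had a median of 2.84 with no edgeR call, and its score ran from -3.19 to 10.1 in T cell-rich and from -3.66 to 7.33 in T cell-poor tumours. Of 8 salivary genes 2 were tested and 1, Amy1, was called lower. Lep and Mbp were named after their values were seen.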
